A study of Mus musculus with 12 samples.

Results

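The transcripts described here are 10 genes that mark macrophages or act in them: C1qa, C1qb and C1qc, Cd68, Csf1r and Adgre1, Mrc1, Cd163 and Marco, and Lacc1. They were taken by name, each through the probe set that the platform annotation gives to that symbol alone, and all 10 were found among the 30142 genes measured, with 1 probe set each. Expression was measured on 12 one-colour arrays, each of the pancreas tumour of a separate mouse, in 4 groups of 3. All mice were PKT, a genetic cross used in this field as a model of pancreatic ductal adenocarcinoma, whose alleles the labels do not spell out. The groups were the FAP depleted tumours and their FAP-TK controls, and the tumours labelled aSMA depleted and their aSMA-TK controls. TK is thymidine kinase, a transgene that makes the dividing cells that carry it sensitive to ganciclovir, and FAP and aSMA are fibroblast activation protein and alpha smooth muscle actin, the products of Fap and Acta2. The labels give ganciclovir at 50 ug per kg for every mouse and mark the controls only as without depletion, so whether the controls received it is not clear, and they give neither age nor sex. The design asks how a tumour changes when FAP-positive or aSMA-positive stromal cells are removed.

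Macrophages are phagocytes that arise from blood monocytes or from precursors seeded in the embryo, and they are among the most common immune cells of pancreatic tumours. Their survival depends on the growth factors CSF1 and IL-34, which signal through the receptor that Csf1r encodes, and their lineage genes are controlled by the transcription factor PU.1. They are the main source of the complement protein C1q, and they carry scavenger receptors that take up debris, bacteria and sugar-tagged proteins. None of these genes is exclusive to macrophages: monocytes and dendritic cells share several of them, and lymphatic or liver vessel lining can make Mrc1.

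Values are the authors' log2 intensities, normalized again here so that all arrays had the same distribution, and differences are in log2 units. A gene was called when its limma p, adjusted by the Benjamini-Hochberg method over all 30142 genes, was under 0.05. The arrays were not of equal quality. The separation of positive from negative control probe sets was 2.69 log2 units on FAP depleted replicate 2 and 2.97 and 2.99 on FAP-TK control replicates 1 and 3, while the other 9 arrays lay between 4.32 and 4.89. Negative-control probe sets had medians of 4.46 to 4.88 in the aSMA line and 5.46 to 6.49 in the FAP line, so line and array background cannot be told apart. Fap differed in the FAP depleted tumours by -1.11 ± 0.37 (SE, n = 3 each, adjusted p = 1.00). Acta2 was not lower in the tumours labelled aSMA depleted (1.68 ± 1.71, adjusted p = 0.949), and these are called by their label throughout. Duct markers were strong in every tumour, with all 10 of 10 above the brightest background probe set on at least 6 arrays and a mean of 13.45 or more on every array. All 10 macrophage genes were above that background on at least 11 of the 12 arrays. It is a low mark, which lay below the negative-control median on several arrays of the FAP line (5.64 against 6.49 on FAP-TK control replicate 1). C1qa, C1qc and Lacc1 exceeded the 95th percentile of the negative-control probe sets on 0 arrays, Adgre1 on 1, and Csf1r and Marco on 2 each. Cd163 did so on 4 arrays, Mrc1 and C1qb on 9 each and Cd68 on 10.

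C1qb, C1qc and C1qa lie side by side on mouse chromosome 4, with no other gene of the RefSeq table between them. RefSeq promoter sequences of build GRCm38.p6 were available for 7 of the 10 genes, the exceptions being C1qa, Csf1r and Adgre1. The 250 bases before the start of 5 of these are printed, because they belong to the genes that stood apart between groups (Mrc1, C1qb, Cd68 and Lacc1) and to the neighbour of C1qb. Capitals mark GAGGAA, the core of the site that PU.1 binds, on either strand, where it reads TTCCTC on the other.
Mrc1, chr2:14229164-14229413, plus strand: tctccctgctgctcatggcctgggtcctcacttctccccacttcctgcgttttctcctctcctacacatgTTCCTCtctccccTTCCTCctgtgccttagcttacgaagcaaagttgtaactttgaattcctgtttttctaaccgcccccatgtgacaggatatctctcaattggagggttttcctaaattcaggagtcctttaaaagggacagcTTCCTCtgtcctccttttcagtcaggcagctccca
C1qb, chr4:136886201-136886450, minus strand: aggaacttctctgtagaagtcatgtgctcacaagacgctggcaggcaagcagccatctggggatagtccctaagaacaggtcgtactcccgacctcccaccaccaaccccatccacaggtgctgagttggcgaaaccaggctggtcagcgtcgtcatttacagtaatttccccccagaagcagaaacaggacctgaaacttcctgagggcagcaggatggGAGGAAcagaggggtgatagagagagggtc
C1qc, chr4:136892915-136893164, minus strand: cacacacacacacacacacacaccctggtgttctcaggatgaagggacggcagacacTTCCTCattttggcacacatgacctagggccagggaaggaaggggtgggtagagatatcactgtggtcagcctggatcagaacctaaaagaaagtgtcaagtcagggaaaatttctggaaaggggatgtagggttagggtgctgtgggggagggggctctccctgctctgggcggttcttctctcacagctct
Cd68, chr11:69666171-69666420, minus strand: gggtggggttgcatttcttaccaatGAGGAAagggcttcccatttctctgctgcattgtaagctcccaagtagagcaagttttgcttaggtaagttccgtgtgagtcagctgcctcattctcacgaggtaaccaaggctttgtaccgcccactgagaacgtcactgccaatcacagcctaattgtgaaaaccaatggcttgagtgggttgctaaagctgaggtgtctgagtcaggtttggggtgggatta
Lacc1, chr14:77036618-77036867, minus strand: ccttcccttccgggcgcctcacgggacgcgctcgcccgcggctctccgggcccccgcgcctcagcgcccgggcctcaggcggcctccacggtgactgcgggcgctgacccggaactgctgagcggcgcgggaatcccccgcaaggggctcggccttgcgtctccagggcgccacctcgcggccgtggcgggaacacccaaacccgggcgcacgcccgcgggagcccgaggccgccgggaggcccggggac
The core occurred in 5 of the 7 promoters, against 23.3% of all 32851 promoters of that length. Mrc1 held it 3 times, at 180, 167 and 35 bases before the start, C1qb once at 30, C1qc once at 193, Marco once at 146 and Cd68 once at 225. Cd163 and Lacc1 held none in this window. TATAAA, the TATA box, was in none of the 7 and in 12.4% of all promoters. TGANTCA, the site of the AP-1 factors, was found in Cd68 alone, at 149 and 24 bases before the start, against 6.75% of all promoters. TGCTGA, part of the element that MAF factors bind, occurred in C1qb and in Lacc1 and in 16.1% of all promoters. The Lacc1 promoter was 79.6% G and C, a level that 1.39% of promoters reach, while the other 6 ran from 36.8% in Cd163 to 55.2% in C1qb and the median promoter had 52.4%. A match to these letters is a description of the sequence and no evidence of binding.

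In tumours labelled aSMA depleted, all 10 genes had a higher mean than in aSMA-TK controls, as did 53.2% of all genes. Their median difference was 0.60, where the median over all genes was 0.01. In FAP depleted tumours 8 of the 10 had a lower mean than in FAP-TK controls, while 59.9% of all genes had a higher one. The median difference of the 10 was -0.44, where all genes had 0.04. That median depended on single arrays: it was 0.62 without FAP depleted replicate 2, 0.05 without FAP-TK control replicate 2 and -0.18 without FAP-TK control replicate 3, but -1.43 without FAP-TK control replicate 1 and -0.99 and -1.04 without FAP depleted replicates 1 and 3. The aSMA median was 1.12 without replicate 1 of the labelled tumours, 0.62 without replicate 2 and 0.81 without replicate 3. It was 0.75, 0.58 and 0.78 without aSMA-TK control replicates 1, 2 and 3. None of these differences passed the test over all genes, in either line. The share of all genes called was 0% for the aSMA comparison, with a smallest adjusted p of 0.474, and 0% for the FAP comparison, with a smallest adjusted p of 0.785. At an unadjusted p under 0.05, 1 of the 10 genes stood out in each comparison, Lacc1 both times, beside 4.81% of all genes in the aSMA line and 3.71% in the FAP line. All 12 arrays shared the estimate of spread, so the wider spread in the FAP line of all but Marco and Lacc1 entered the errors given for the aSMA line. With only the 6 arrays of the aSMA line fitted, 4 of the 10 had an unadjusted limma p under 0.05 (Mrc1, C1qb, Cd68 and Lacc1), beside 6.20% of all genes, and without the 3 arrays of low separation 3 of the 10 did (Mrc1, C1qb and Cd68), beside 7.22%. None was called in either fit, where the smallest adjusted limma p among the 10 was 0.768 and 0.670. In bulk tumour RNA, fewer macrophages and less RNA per macrophage cannot be told apart.

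**Figure D1:**
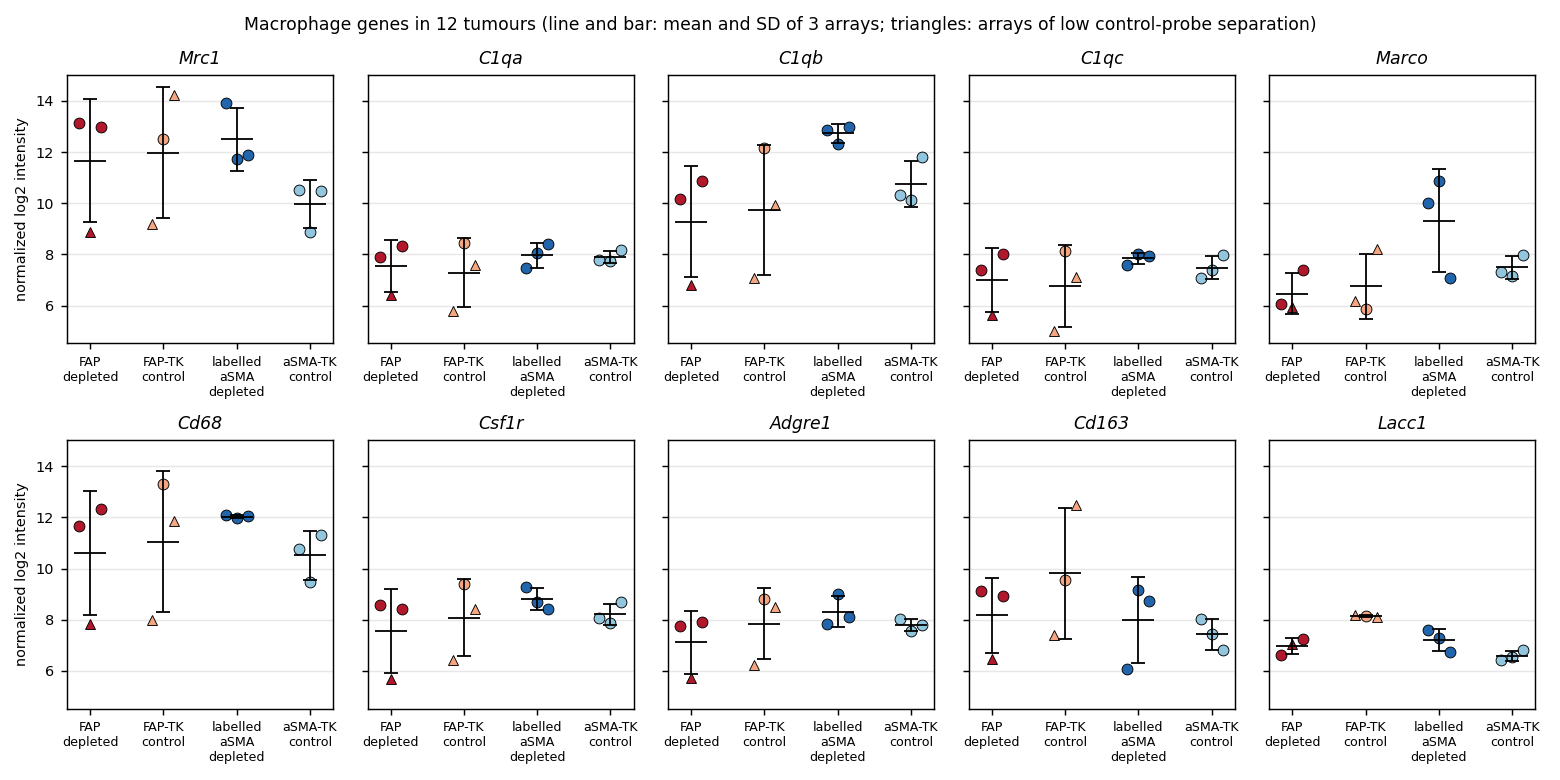
Normalized log2 value of each of the 10 macrophage genes (vertical axis) in the 4 groups (horizontal axis), with 1 point per tumour, 3 per group, triangles for the 3 arrays of low control-probe separation, and a line and bar for the group mean and SD. Mrc1, C1qb and Cd68 lie above their controls in all 3 tumours labelled aSMA depleted, and Lacc1 lies below its controls in all 3 FAP depleted tumours.

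C1qa, C1qb and C1qc encode the chains of C1q, the molecule that recognises bound antibody and dying cells and starts the classical complement pathway. C1qb had log2 values of 12.88, 12.31 and 12.998 in the tumours labelled aSMA depleted, against 10.32, 10.15 and 11.80 in the aSMA-TK controls. All 3 labelled tumours lay above all 3 controls, with a difference of 1.97 ± 1.29 (SE, n = 3 each, limma adjusted p = 0.944, two-sided exact permutation p = 0.1, the smallest that 3 against 3 allows). The SE was 0.47 with only the 6 arrays of that line fitted (adjusted p = 0.768). C1qa, at 7.46, 8.05 and 8.42 against 7.77, 7.74 and 8.18 in the controls, overlapped and differed by 0.08 ± 0.66. C1qc also overlapped, with 7.60, 8.01 and 7.94 in the tumours labelled aSMA depleted and 7.09, 7.38 and 7.98 in the aSMA-TK controls, a difference of 0.37 ± 0.78. The tests of C1qa and C1qc gave adjusted p of 0.994 and 0.976 with limma.

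The chains were set apart in the FAP line by tumour more than by group. C1qb had values of 10.18, 6.80 and 10.88 in FAP depleted tumours, against 7.08, 12.15 and 9.93 in FAP-TK controls. The lowest tumour of each group, FAP depleted replicate 2 and FAP-TK control replicate 1, lay about as low as each other, and the groups overlapped (-0.44 ± 1.29). C1qa had 7.90, 6.40 and 8.33 in FAP depleted tumours, against 5.80, 8.47 and 7.60 in FAP-TK controls, a difference of 0.25 ± 0.66. C1qc had 7.40, 5.62 and 8.01 in FAP depleted tumours, against 5.00, 8.15 and 7.12 in FAP-TK controls, a difference of 0.25 ± 0.78. These adjusted p values were all 1.00 in limma. The sign of each chain's difference turned when single tumours were left out. Without FAP depleted replicate 2 the C1qb difference turned to 0.81. Without FAP-TK control replicate 1, C1qa turned to -0.49 and C1qc to -0.62, while C1qb kept its sign at -1.76.

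Cd68, Csf1r and Adgre1 are the usual markers of macrophages as a class: Cd68 encodes a glycoprotein of lysosomes, Csf1r the receptor for CSF1 and IL-34, and Adgre1 the mouse surface antigen F4/80. Cd68 had 12.09, 11.97 and 12.04 in the tumours labelled aSMA depleted, against 10.78, 9.47 and 11.33 in the aSMA-TK controls. The labelled tumours were close to each other and all above the controls (12.03 ± 0.06 and 10.52 ± 0.96, SD, n = 3 each). The difference of 1.51 ± 1.40 did not pass the test (limma adjusted p = 0.947, exact permutation p = 0.1), and it was 0.98 without aSMA-TK control replicate 2, the control with the lowest value. The SE was 0.46 with only that line fitted (adjusted p = 0.768). Csf1r had 9.27, 8.67 and 8.43 in the tumours labelled aSMA depleted, against 8.07, 7.88 and 8.68 in the aSMA-TK controls, and Adgre1 had 7.85, 9.00 and 8.11 against 8.03, 7.55 and 7.81. Both overlapped their controls, with differences of 0.58 ± 0.86 and 0.53 ± 0.73. Csf1r was at 0.34 without replicate 1 of the labelled tumours, and Adgre1 at 0.19 without replicate 2.

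In FAP depleted tumours Cd68 had 11.67, 7.83 and 12.32, against 7.99, 13.30 and 11.88 in FAP-TK controls. Each group again held 1 tumour near 8 and others close to 12 or above, so that the range within a group was several times the difference of -0.45 ± 1.40. Csf1r had 8.58, 5.67 and 8.44 in FAP depleted tumours, against 6.44, 9.40 and 8.40 in FAP-TK controls (-0.52 ± 0.86). Adgre1 had 7.74, 5.70 and 7.91 in FAP depleted tumours, against 6.24, 8.80 and 8.48 in FAP-TK controls (-0.72 ± 0.73). The groups overlapped for both. Leaving out FAP depleted replicate 2 turned Cd68 to 0.94 and Csf1r to 0.43 and left Adgre1 at -0.02. Leaving out FAP-TK control replicate 1 gave -1.98 for Cd68, -1.34 for Csf1r and -1.52 for Adgre1.

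Mrc1, Cd163 and Marco encode receptors for uptake: the mannose receptor, the receptor for haemoglobin bound to haptoglobin, and a class A scavenger receptor that binds bacteria and particles. Mrc1 had the largest difference of the 10 genes in the aSMA line. It reached 13.92, 11.71 and 11.89 in the tumours labelled aSMA depleted, against 10.52, 8.87 and 10.50 in the aSMA-TK controls, so all 3 labelled tumours were above all 3 controls. The difference was 2.54 ± 1.43 (SE, n = 3 each), with a limma adjusted p of 0.944 and an exact permutation p of 0.1. The SE was 0.74 with only that line fitted (adjusted p = 0.768). Across that line, 3 of the 10 genes (Mrc1, C1qb and Cd68) had labelled tumours that were all above the controls, where 7.43% of all genes did, and none had them all below, where 5.08% of all genes did.

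Marco was high in 2 of the tumours labelled aSMA depleted, at 10.02 and 10.89, while the third was at 7.06, below the aSMA-TK controls at 7.33, 7.15 and 7.99. Its difference of 1.83 ± 0.94 (limma adjusted p = 0.944, exact permutation p = 0.4) was 2.96 without replicate 3 and 1.05 without replicate 2 of that labelled group. Cd163 did not follow Mrc1 or Marco from tumour to tumour in the aSMA line. It had 6.06, 9.17 and 8.72 in the tumours labelled aSMA depleted, against 8.02, 7.44 and 6.82 in the aSMA-TK controls, a difference of 0.56 ± 1.28 that was 1.52 without replicate 1 and -0.04 without replicate 2 of the labelled tumours.

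Mrc1 of the FAP line had 13.16, 8.88 and 12.97 in FAP depleted tumours, against 9.18, 12.52 and 14.25 in FAP-TK controls, and the difference of -0.31 ± 1.43 changed sign when FAP depleted replicate 2 was left out (1.08). Marco was near the low end of its range in most of these tumours, at 6.06, 5.95 and 7.38 in FAP depleted tumours, against 6.18, 5.89 and 8.20 in FAP-TK controls (-0.30 ± 0.94). Cd163 had 9.12, 6.45 and 8.92 in FAP depleted tumours, against 7.42, 9.54 and 12.51 in FAP-TK controls. Its difference was -1.65 ± 1.28, the largest in size of the 10 in this line, but the groups overlapped. Without FAP-TK control replicate 3, the tumour at 12.51, the difference was -0.31, and without FAP depleted replicate 2 it was -0.80. Without FAP-TK control replicate 1, an array of low separation, it was -2.85 (limma adjusted p = 0.773).

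Lacc1 differed from the other 9 genes in having little spread within groups in the FAP line and with the 4 groups pooled. It encodes laccase domain containing 1, also known as FAMIN, a purine nucleoside enzyme of macrophages that has been studied for its part in their metabolism and in inflammatory disease. Lacc1 had 6.63, 7.04 and 7.26 in FAP depleted tumours, against 8.17, 8.14 and 8.12 in FAP-TK controls. All 3 depleted tumours were below all 3 controls, and the controls lay close together (6.97 ± 0.32 and 8.15 ± 0.02, SD, n = 3 each). It was the only one of the 10 whose groups did not overlap in the FAP comparison, where 2.50% of all genes were lower and 5.60% higher without overlap. The difference of -1.17 ± 0.23 had an unadjusted limma p of 0.00044, an adjusted p of 1.00 and an exact permutation p of 0.1. It kept its sign when any array was left out, between -1.32 and -1.0, and was -1.20 ± 0.40 without the 3 arrays of low separation, which leaves 1 FAP-TK control.

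In the tumours labelled aSMA depleted, Lacc1 had 7.62, 7.28 and 6.73, against 6.42, 6.52 and 6.81 in the aSMA-TK controls. Its SD in these labelled tumours was 0.45, larger than for Cd68 (0.06), C1qc (0.22), C1qb (0.37) and Csf1r (0.43) and smaller than for the rest. The groups overlapped through the lowest labelled tumour and the highest control, and the difference was 0.63 ± 0.23 (unadjusted limma p = 0.0202, adjusted p = 0.944, exact permutation p = 0.2). Lacc1 was above the brightest background probe set on all 12 arrays, but on none of them did it exceed the 95th percentile of the negative-control probe sets, a stricter mark that C1qa and C1qc did not reach either.

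**Figure D2:**
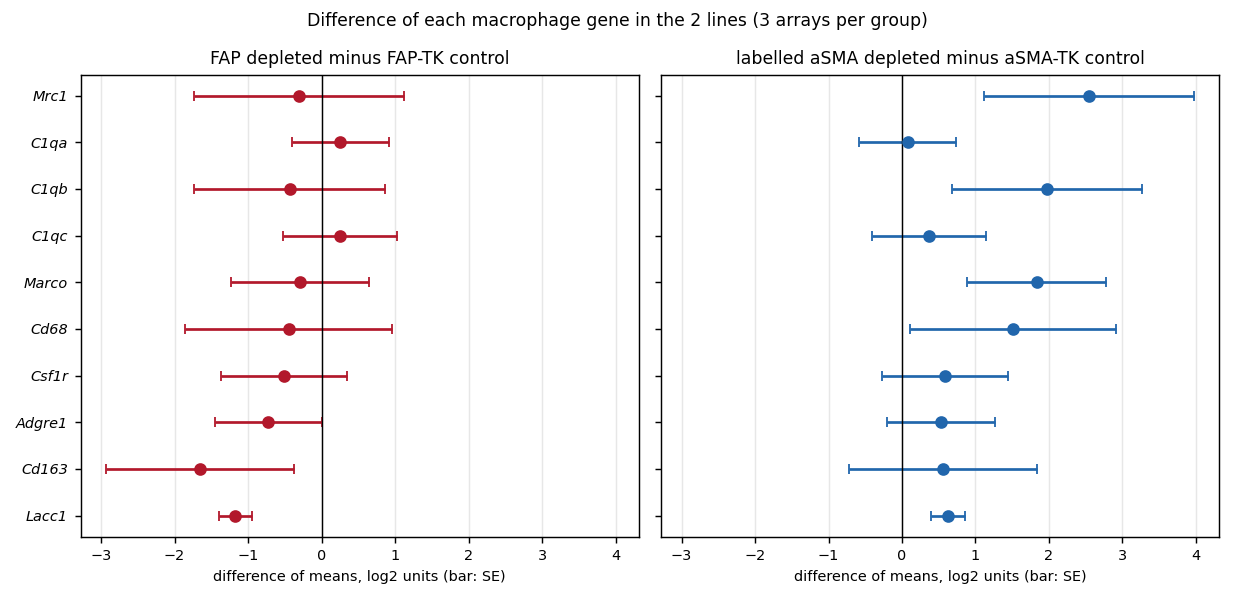
Difference of group means in log2 units (horizontal axis) for each of the 10 macrophage genes (vertical axis), FAP depleted minus FAP-TK control on the left and the tumours labelled aSMA depleted minus aSMA-TK control on the right, with bars of 1 SE from the limma fit. The SE of Lacc1 is 0.23, against 0.66 to 1.43 for the other 9 genes, and all 10 points on the right are above 0.

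Whether the genes moved differently in the 2 lines was tested as the aSMA difference minus the FAP difference. This was above 0 for 9 of the 10 genes, with a median of 1.88, where the median of all genes was -0.03. The median was 0.87 without FAP depleted replicate 2, 1.02 without FAP-TK control replicate 2 and 1.17 without FAP-TK control replicate 3. The exception was C1qa, at -0.18 ± 0.94. No gene of the 30142 was called here (0%), and 5.96% of all genes had an unadjusted p under 0.05. Of the 10, only Lacc1 did, at 1.80 ± 0.32 (limma adjusted p = 0.829). Mrc1 was at 2.86 ± 2.02, C1qb at 2.41 ± 1.83, Cd163 at 2.21 ± 1.81 and Marco at 2.13 ± 1.33, with adjusted p between 0.852 and 0.869.

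The control groups of the 2 lines differed in Lacc1. It was lower in aSMA-TK controls, at 6.58 ± 0.20, than in FAP-TK controls, at 8.15 ± 0.02, a difference of -1.56 ± 0.23 (limma adjusted p = 0.00872), and the groups did not overlap. It was 1 of the 10 genes called in a comparison that called 7.80% of all genes, 1440 of them higher and 910 lower in the aSMA line, and in which line and array background cannot be told apart. Without the 3 arrays of low separation, which leaves FAP-TK control replicate 2 alone in its group, the Lacc1 difference was -1.56 and its adjusted p 0.0924. Cd163 and Mrc1 differed between aSMA-TK and FAP-TK controls by -2.39 ± 1.28 and -2.02 ± 1.43, with overlapping groups and adjusted p of 0.251 and 0.381. Between the depleted tumours, where 5.18% of all genes were called, none of the 10 was. C1qb was higher in all 3 tumours labelled aSMA depleted than in any FAP depleted tumour (3.45 ± 1.29, adjusted p = 0.141), and Marco was higher by 2.86 ± 0.94 (adjusted p = 0.105), with overlap. These comparisons share their groups with those within the lines and are not independent of them.

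Taking each gene's 4 group means in order, the tumours labelled aSMA depleted stood highest for 8 of the 10 genes. The exceptions, Cd163 and Lacc1, were highest in FAP-TK controls. Of the 30 pairs of neighbours in these orders, 26 differed by less than the pooled SD within groups. The exceptions were the tumours labelled aSMA depleted above aSMA-TK controls for C1qb and Marco, and, for Lacc1, the tumours labelled aSMA depleted below FAP-TK controls and FAP depleted tumours above aSMA-TK controls. The share of a gene's variation over the 12 tumours that lay within groups was 87.3% for C1qa, 86.9% for Cd68, 82.2% for Csf1r, 80.3% for C1qc, 77.9% for Adgre1, 73.2% for Mrc1 and 71.4% for Cd163. It was 53.5% for C1qb, 46.5% for Marco and 14.7% for Lacc1, and the median over all genes was 58.3%.

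How the genes varied together was followed as the deviation of each tumour from the gene's mean over the 6 arrays of its line. In the FAP line, FAP depleted replicate 2 and FAP-TK control replicate 1 were the lowest arrays for 8 of the 10 genes, Marco and Lacc1 being the others. The same held for 18.2% of all genes. On these arrays Cd68 was -3.00 and -2.84 from its mean, Mrc1 -2.94 and -2.65, C1qb -2.71 and -2.42 and Csf1r -2.15 and -1.38. Lacc1 was at -0.52 in the depleted tumour and 0.61 in the control. Both arrays were among the 3 of low control-probe separation. The remaining one, FAP-TK control replicate 3, was above the mean for all 10 genes, with Cd163 at 3.51, Mrc1 at 2.42 and Marco at 1.60.

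**Figure D3:**
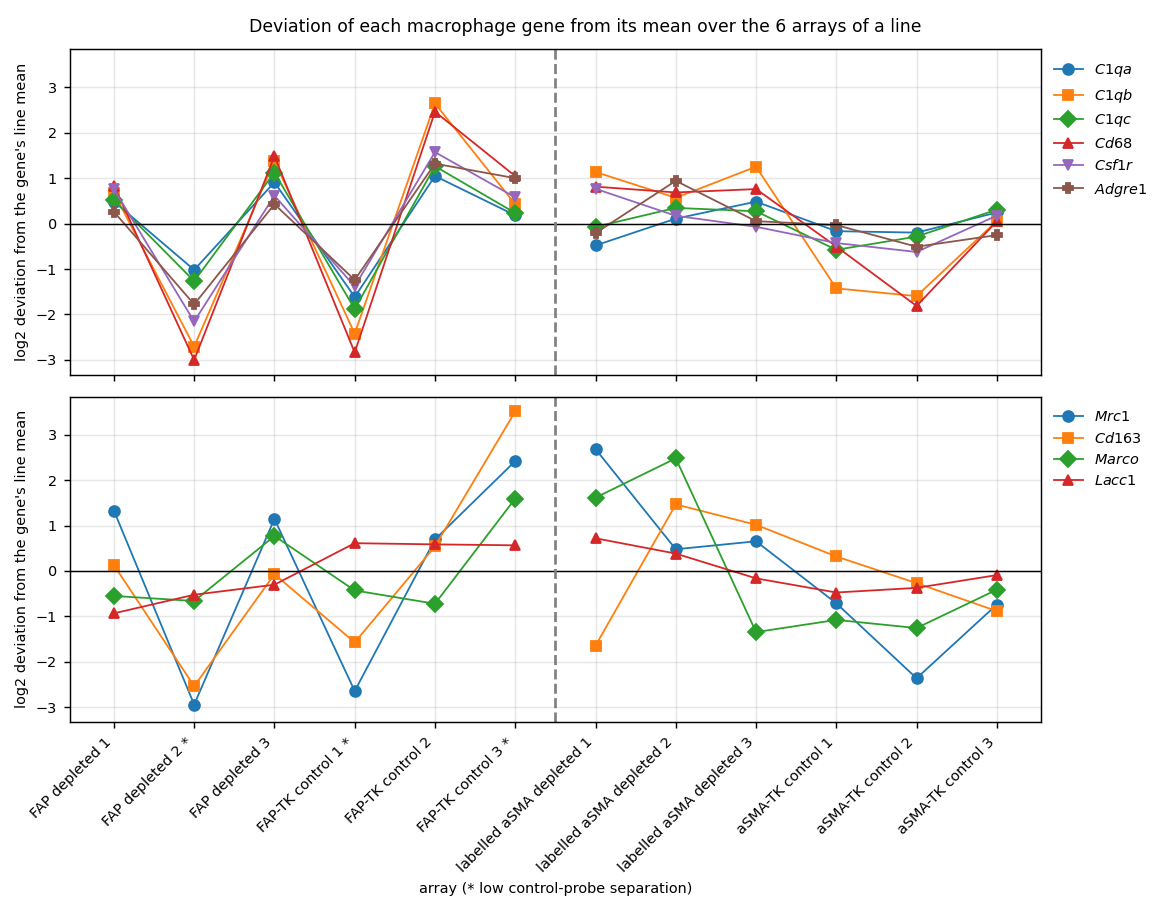
Deviation of each macrophage gene from its mean over the 6 arrays of its line, in log2 units (vertical axis), on the 12 arrays (horizontal axis), with the C1q chains, Cd68, Csf1r and Adgre1 above and Mrc1, Cd163, Marco and Lacc1 below. The 6 genes above move together across the FAP line, down to -3.00 for Cd68 on FAP depleted replicate 2, while Lacc1 below separates the depleted tumours from the controls of that line.

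The correlation of the C1q chains was tested within each line, as 6 relations over 6 tumours each. C1qa and C1qc of the FAP line had Pearson's r = 0.999 (exact permutation p = 0.00139, adjusted 0.00833) and Spearman's rho = 1.0 (exact permutation p = 0.00278, adjusted 0.0167). C1qa and C1qb had r = 0.963 and rho = 0.943, with exact permutation p of 0.00417 and 0.0167 (adjusted 0.0111 and 0.0333). C1qb and C1qc had r = 0.968 and rho = 0.943, with exact permutation p of 0.00556 and 0.0167 (adjusted 0.0111 and 0.0333). Without the 2 arrays farthest from the median of the first gene, r was 0.997, 0.901 and 0.901 in the same order of pairs. In the aSMA line r was 0.660 for C1qa and C1qc, 0.318 for C1qa and C1qb and 0.747 for C1qb and C1qc, with adjusted exact permutation p of 0.207, 0.511 and 0.181. The rho values there were 0.543, 0.371 and 0.486, with adjusted exact permutation p of 0.427, 0.497 and 0.427, and without the 2 farthest arrays r was 0.906, 0.899 and -0.537 in the same order. The difference between the lines was not tested. Each relation pooled depleted and control tumours. FAP depleted replicate 2 and FAP-TK control replicate 1, both of low separation, were the lowest FAP line arrays for 18.2% of all genes. Rpl12, a ribosomal protein gene, had r = 0.940 with the C1q mean over line-centred values. These p values therefore do not set the chains apart from other genes. C1qa and C1qc also exceeded the 95th percentile of the negative controls on 0 arrays.

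The mean of the 3 chains was set beside the control-probe separation of its array. It was 8.50, 6.27 and 9.07 in FAP depleted tumours, 5.96, 9.59 and 8.22 in FAP-TK controls, 9.31, 9.46 and 9.79 in the tumours labelled aSMA depleted and 8.39, 8.42 and 9.32 in aSMA-TK controls. The 3 arrays of low separation held the 3 lowest of these means: 6.27 in FAP depleted replicate 2 (separation 2.69), 5.96 in FAP-TK control replicate 1 (2.97) and 8.22 in FAP-TK control replicate 3 (2.99). The next lowest was 8.39, in an aSMA-TK control. The part of array quality in these values was not tested beyond the fits without those arrays and with separation as a covariate.

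**Figure D4:**
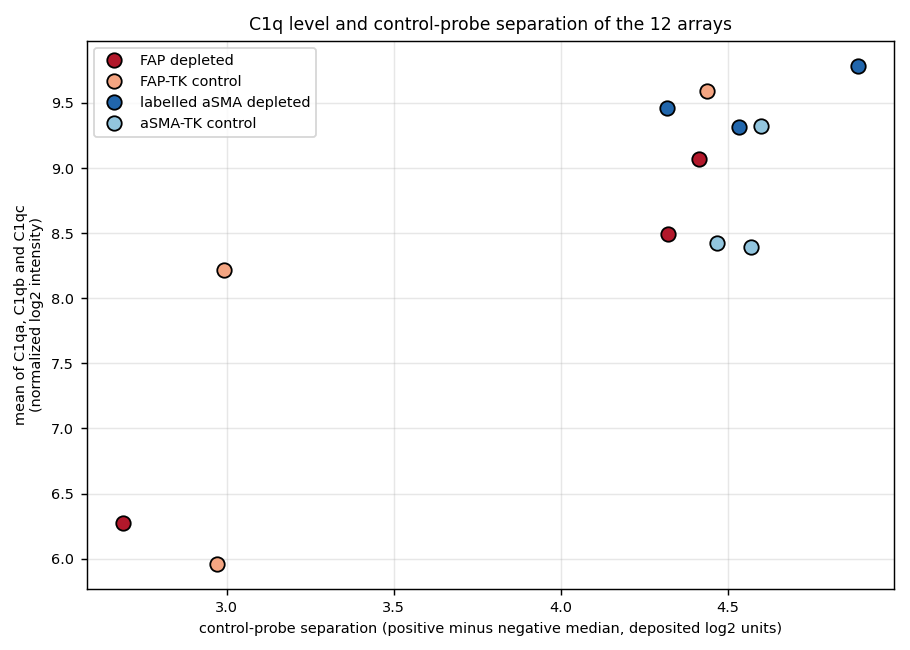
Mean normalized log2 value of C1qa, C1qb and C1qc (vertical axis) against the separation of positive from negative control probe sets on the same array in deposited log2 units (horizontal axis), with 1 point per array, coloured by group. The 3 arrays with a separation under 3.5 hold the lowest C1q means, 6.27, 5.96 and 8.22, and the other 9 lie at 8.39 or above.

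Apart from the 10 macrophage genes, the genes whose pattern was most like the C1q mean were sought among 2421 genes above the 95th percentile of the negative controls on at least 6 arrays, by the correlation of line-centred values over the 12 arrays, as a description. The 10 closest outside the macrophage genes were Arf4 (r = 0.955), Ccn1 (0.953), Apoe (0.950), Maged1 (0.943), Rpl12 (0.940), Tubb5 (0.937), Ftl1 (0.936), Ppib (0.934), Eif5a (0.934) and Dynlrb1 (0.934). Only Apoe, the apolipoprotein that lipid-laden macrophages secrete, is on the myeloid list. Several others are expressed in nearly every cell, among them Rpl12, a ribosomal protein, Eif5a, a translation factor, and Tubb5, a tubulin. All 10 were lowest in the FAP line on FAP depleted replicate 2 and FAP-TK control replicate 1. Rpl12, for example, was at 17.36 and 17.39 there and between 18.71 and 19.40 on the other 4 arrays of that line. On the same scale Cd68 had r = 0.968, Csf1r 0.919, Adgre1 0.856, Mrc1 0.763, Cd163 0.517, Marco 0.237 and Lacc1 0.103.

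The signals and factors that keep macrophages alive or set their lineage showed no common direction. Of 12 such genes 9 were measured, and in the tumours labelled aSMA depleted 6 were higher and 3 lower, with a median of 0.03 and none called. In FAP depleted tumours 4 were higher and 5 lower, with a median of -0.07 and none called. Maf, a transcription factor of resident macrophages, had 7.88, 6.62 and 7.95 in FAP depleted tumours, against 6.96, 9.96 and 10.32 in FAP-TK controls, an overlapping difference of -1.60 ± 0.82. Csf2ra, a subunit of the GM-CSF receptor, differed by 1.47 ± 0.99 in the aSMA line.

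Of the partners of C1q in the classical pathway, 10 of 12 were measured. In the aSMA line 7 were higher and 3 lower (median 0.57), none called. The labelled tumours were all above the controls for 3 of them, and for 7.43% of all genes. C1ra, a protease of the C1 complex, had 8.02, 8.39 and 7.73 in the tumours labelled aSMA depleted, against 6.95, 6.90 and 6.90 in aSMA-TK controls, a difference of 1.13 ± 0.47 (limma adjusted p = 0.944). Serping1, the inhibitor of that protease, differed by 2.12 ± 1.03 with no overlap. Both are also made by fibroblasts. Within the FAP line 2 were higher and 8 lower (median -0.42), none called, with Serping1 at -1.20 ± 1.03 and C2, the next protease of the pathway, at -0.69 ± 0.38, both overlapping.

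All 18 other scavenger and lectin receptors on the list were measured. In the aSMA line 14 were higher and 4 lower (median 0.36), none called, and 4 did not overlap, all higher. Over all genes, 7.43% were higher and 5.08% lower without overlap in that line. Lyve1, a hyaluronan receptor of a resident macrophage subset and of lymphatic vessels, had 10.25, 8.88 and 10.37 in the tumours labelled aSMA depleted, against 7.21, 6.77 and 6.87 in aSMA-TK controls, a difference of 2.89 ± 0.99. Olr1, a receptor for oxidised lipoprotein, differed by 2.38 ± 0.78, Colec12, a scavenger receptor with a collagen-like stem, by 1.88 ± 1.05 and Cd36, a receptor for fatty acids, by 0.89 ± 0.34. The limma adjusted p was 0.944 for each of these 4. In the FAP line 3 were higher and 15 lower (median -0.14), none called, with Lyve1 at -1.48 ± 0.99 and Stab1, an endocytic receptor, at -0.99 ± 0.55, both overlapping. The list mean was 6.30, 5.04 and 6.31 in FAP depleted tumours, against 5.17, 6.91 and 6.57 in FAP-TK controls. Its lowest values, 5.04 and 5.17, were on arrays of low separation.

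The wider list of pan-macrophage and myeloid genes, 23 of 25 measured, had 18 higher and 5 lower in the aSMA line (median 0.31) and 5 higher and 18 lower in the FAP line (median -0.42), with none called in either. The list mean was 9.57, 7.23 and 9.28 in FAP depleted tumours, against 7.55, 10.56 and 9.29 in FAP-TK controls. The lowest tumour of each group was on an array of low separation. How far the FAP counts rest on these arrays was not tested. In the aSMA line 6 lay above the controls in all 3 labelled tumours, beside 7.43% of all genes. They included Mertk, a receptor for dying cells, at 0.87 ± 0.45 and Fcgr3, a low-affinity antibody receptor, at 1.37 ± 0.92, while the chemokine receptor gene Cx3cr1 was at -0.94 ± 0.48 with overlap. Among FAP depleted tumours, Ms4a7, a macrophage membrane protein, was at -1.31 ± 0.70 and Cd14, the co-receptor for bacterial lipopolysaccharide, at 1.07 ± 1.03. Alternative activation genes had 7 of 10 higher in the aSMA line (median 0.29) and 6 of 10 in the FAP line (median 0.07). Of all genes, 53.2% were higher in the aSMA line and 59.9% in the FAP line. Inflammatory genes had 4 of 12 higher in the aSMA line (median -0.12) and 5 of 12 in the FAP line (median -0.05). None of either list was called, with Arg1, the arginase of alternatively activated mouse macrophages, at 1.11 ± 1.24 in the aSMA line and Il1b, a fever cytokine, at -0.91 ± 1.70 in the FAP line.

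Purine enzymes and Nod2 are the setting in which Lacc1 has been studied. Of these, 6 of 7 measured genes were higher in FAP depleted tumours (median 0.45), beside 59.9% of all genes, and none was called. Lacc1 was lower there. Adk, adenosine kinase, was at 0.46 ± 0.27 and Nt5e, the ectoenzyme that makes adenosine, at 0.80 ± 0.76. In the aSMA line 4 of 7 were higher (median 0.11), none called, and Hprt, the purine salvage enzyme, was at 1.01 ± 0.46 with no overlap.

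Markers of other cell types stood beside these values as follows, with none called in either comparison. Of all genes, 53.2% had a higher mean in the aSMA comparison and 59.9% in the FAP comparison. All 10 fibroblast genes measured were higher in the tumours labelled aSMA depleted (median 0.79), 4 of them without overlap, beside 7.43% of all genes. The fibroblast list means were 9.93 to 11.17 there, against 9.05 to 9.86 in aSMA-TK controls. All 10, which include Fap itself, were lower in FAP depleted tumours (median -0.76). The list means were 9.73, 7.53 and 9.93 there, against 8.99, 10.51 and 10.21 in FAP-TK controls. The lowest, 7.53, was on FAP depleted replicate 2, the array of lowest separation. The mean of the 10 macrophage genes ran from 9.23 to 9.71 in the tumours labelled aSMA depleted and from 8.01 to 8.79 in aSMA-TK controls, and from 6.63 to 9.24 in FAP depleted tumours and from 6.95 to 9.65 in FAP-TK controls. Duct markers were higher for 10 of 10 genes in FAP depleted tumours (median 0.89) and for 5 of 10 in the tumours labelled aSMA depleted (median -0.03). Acinar genes, the digestive enzymes of normal pancreas, were higher for 10 of 11 (median 1.92) and for 7 of 11 (median 0.29) in the same comparisons. Dendritic cell and T cell genes were mostly at background, with 1 of 10 measured on each list above the brightest background probe set on at least 6 arrays. T cell genes had 9 of 10 higher in the aSMA line (median 0.31) and 2 of 10 in the FAP line (median -0.04). Dendritic cell genes had 6 of 10 (median 0.05) and 3 of 10 (median -0.07) higher in the same order. Monocyte genes had 6 of 8 higher in the aSMA line (median 0.34), with Ccr2, the receptor that brings monocytes from blood, at -1.05 ± 0.77 and Ace at 2.00 ± 0.66, both without overlap. In the FAP line 5 of 8 monocyte genes were higher (median 0.33), with Ly6c2, a surface antigen of inflammatory monocytes, at 2.15 ± 1.00 with overlap. Endothelial genes had 7 of 9 higher in the aSMA line (median 0.24) and 5 of 9 in the FAP line (median 0.08), and B cell and plasma cell genes 7 of 8 (median 0.19) and 5 of 8 (median 0.07). Mast cell genes had 5 of 7 higher in the aSMA line (median 0.07) and 2 of 7 in the FAP line (median -0.06). Neutrophil genes had 5 of 12 higher in each line (medians of -0.01 in the aSMA line and -0.11 in the FAP line). The part of these cell types in the macrophage values was not tested.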

How the data were processed

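RNA of 12 mouse pancreas tumours was hybridised to 1 one-colour array each. Per the labels' protocols it was extracted with Trizol and made into biotinylated cRNA with a kit for Illumina arrays, though the probe set names are of an Affymetrix type. The deposited values are log2 intensities of 72688 probe sets from 1.64 to 19.93, a scale read from the values and not stated, so no difference was turned into a fold. The submitters' processing notes name limma, but neither how background was corrected nor how arrays were normalized is given in the sources used here. Because array medians differed, the 65956 probe sets that are not controls were quantile normalized. Of the 32750 listed probe sets, 30604 had 1 symbol and 2146 had several, while 33206 others had none. RefSeq updated 827 symbols, and the probe set of highest mean was kept per gene, giving 30142 genes.

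A limma model (version 3.58.1, R 4.3.3) gave each group a mean, with all 12 arrays sharing the estimate of spread, and p-values were adjusted by the Benjamini-Hochberg method. Single genes were also compared by exact two-sided permutation tests over the tumours. Precision is limited by the number of arrays.

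The 10 genes, the gene lists, the tests and the alternatives were chosen with earlier results of these data known. Outside the 10 genes, the 4 genes of smallest unadjusted p in each list and depletion comparison could be named, with Fap, Acta2 and the 10 genes most like the C1q mean. Replicates were numbered in accession order. Alternatives changed the normalization, the filter on dim genes, the probe set rule, the arrays fitted, the variance model, the array weights and the test, and left out each array in turn.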

Additional observations from a re-analysis of the deposited data

How the results depend on the processing

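Within both lines, no alternative called any of the 10 genes. For all genes, the FAP comparison called 13 without the 3 arrays of low separation, a fit that leaves 1 FAP-TK control, which is assumed to vary like the other groups. With single arrays left out it called 0 to 4, the aSMA comparison 0 to 16 and the difference between them 0 to 1. The sign of most differences in the FAP line was not stable. With array weights they were 0.35 for C1qb, 0.12 for Cd68 and 0.11 for Csf1r. Without the arrays of low separation they were 0.54 for Mrc1, -0.35 for C1qa, -0.44 for C1qc and 0.83 for Marco. With separation as a covariate they were -0.12 for C1qa and -0.18 for C1qc. With single arrays left out they ran from -1.71 to 1.08 for Mrc1, -0.49 to 0.84 for C1qa, -1.76 to 0.81 for C1qb, -0.62 to 0.95 for C1qc, -0.75 to 0.43 for Marco, -1.98 to 0.94 for Cd68 and -1.34 to 0.43 for Csf1r, and, with no change of sign, -1.52 to -0.02 for Adgre1 and -2.85 to -0.31 for Cd163. In the aSMA line they ran from -0.15 to 0.34 for C1qa and -0.037 to 1.52 for Cd163. The difference between the lines for C1qa was 0.083 on the deposited scale, 0.16 with median centring, 0.16 with separation as a covariate and 0.43 without the arrays of low separation, and ran from -0.77 to 0.57 with single arrays left out. For C1qc it was -0.060 with array weights and ran from -0.58 to 0.99. Lacc1 kept its sign under every alternative that fitted it, in all 4 comparisons it was described in.

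Between lines, counts followed the scale. The deposited scale moved the median of all genes by -0.39 between controls and -0.45 between depleted tumours. For controls the counts of genes called were 12443 on the deposited scale, 5769 with median centring, 0 with dim genes left out, 6658 with array weights, 1012 with separation as a covariate, 357 without the arrays of low separation and 508 to 3130 with single arrays left out. For depleted tumours they were 14287, 3391, 18 and 4502 in that order, 634 without the arrays of low separation and 374 to 1874 with single arrays left out. Of the 10 genes, 2 were called between controls with array weights, Lacc1 and Cd163 (-3.77 ± 1.10). The count was 0 with dim genes left out, since Lacc1 was then not fitted, and 0 without the arrays of low separation, where Lacc1 was at -1.56 (adjusted p = 0.0924). Its adjusted p over all alternatives ran from 0.000221 to 0.0924. Between depleted tumours 1 was called with array weights (Marco, 3.02), and 0 to 1 with single arrays left out (Marco, 3.99 without aSMA depleted replicate 3). No paired analysis was possible because the labels number each mouse once and no number is shared between groups. Several of the 10 genes lie near the negative-control level, which limits what these arrays can show for C1qa, C1qc, Lacc1, Adgre1, Csf1r and Marco. Of these, Adgre1 exceeded the 95th percentile of the negative controls on 1 array, Csf1r and Marco on 2 each and the rest on 0.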
